A study of Mus musculus with 3 samples.

Results

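Collagens are the main structural proteins of the extracellular matrix, and fibroblasts are their main source in connective tissue. The arrays carried 41 collagen chains, found as every gene name made of Col, a number, the letter a and a number, among 35696 gene names in all. They were read by 63 of the 55681 gene probes. By class, 11 chains were fibrillar, 6 belonged to the basement membrane, 9 were FACITs (fibril-associated collagens with interrupted triple helices) and 15 were of other kinds, such as beaded filament, anchoring fibril, network, transmembrane and multiplexin collagens.

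Each collagen molecule is a helix of 3 chains, and in each chain a glycine stands at the start of every Gly-X-Y triplet. Fibrillar collagens I, III and V assemble into the fibrils of skin, tendon and bone, collagens II and XI into those of cartilage. Collagen IV forms the sheet-like network of basement membranes, and FACITs sit on the surface of fibrils. The chains are hydroxylated, glycosylated and folded in the endoplasmic reticulum, exported, trimmed of their propeptides and cross-linked by lysyl oxidases, and the matrix is later cut by metalloproteinases.

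The cells were mouse embryonic fibroblasts (MEF cells) of strain C57BL/6, primary cultures from mid-gestation embryos without heads, legs and internal organs, so a mixed population and not 1 cell type. Total RNA was taken from MEF cells without treatment (control), with BP at 10 µg/ml (BP10) and with BP at 40 µg/ml (BP40). BP is n-butylidenephthalide, a compound from the root of Angelica sinensis, spelled n-Butylenephthalide in the labels. The labels give no treatment for the control, whereas the study's text names DMSO, the solvent of BP, as the control of these arrays. Whether the control culture received the solvent is therefore not settled, and a ratio against it may or may not include an effect of DMSO. The time of treatment of these cultures is not given in the sources used here. Each condition had 1 one-colour array, 3 arrays in all, so that each ratio below compares 2 arrays, without a replicate spread and without a p-value.

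All arrays lay on 1 slide, and BP10 and BP40 were scanned in 1 session and the control in another, so that for ratios against the control the treatment and the scan session cannot be told apart. The share of gene spots well above background was 81.7% for the control, 68.3% for BP10 and 69.1% for BP40, and no spot was saturated. Collagen probes followed this order, with 54, 44 and 44 of the 63 probes well above background. Signals are log2 of the processed intensity minus the 75th percentile of the array, so that 0 marks the brightness of that percentile, and a ratio is the difference of 2 such values. A chain was called at a ratio of at least 2-fold, a log2 ratio of 1, provided that 1 or both of the arrays showed its probe well above background. Where only 1 did, the true ratio can be larger in size, and a bound is given. As a measure of technical spread, the median SD of the ratio between 2 probes of the same gene, over 4766 genes, was 0.293 for BP10 and 0.224 for BP40, each against the control, and 0.213 between the doses. Chains of different probes cannot be compared in level, because probes differ in brightness for equal RNA.

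Of the 63 probes, 3 carried the helix repeat itself, with at least 5 GG dinucleotides in a row at a step of 9 bases, the spacing of glycine codons in Gly-X-Y triplets. Among all 55681 gene probes there were 20 such probes. They are shown because they let the repeat be seen in the measured sequence; capitals mark the repeated GG, and positions are of the array design on mm9.
Col15a1, chr4:47283786-47283845, plus strand: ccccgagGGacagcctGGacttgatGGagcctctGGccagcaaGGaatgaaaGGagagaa
Col16a1, chr4:129756457-129756516, plus strand: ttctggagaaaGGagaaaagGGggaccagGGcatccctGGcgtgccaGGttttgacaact
Col25a1, chr3:130270497-130270556, plus strand: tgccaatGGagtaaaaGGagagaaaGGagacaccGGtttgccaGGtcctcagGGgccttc
The Col15a1 and Col25a1 probes are those used for their chains, with 6 repeats each, and the Col16a1 probe, with 5 repeats, is 1 of 4 for that chain.

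Collagen gene expression levels were mostly lower with BP, with 33 of 41 ratios below 0 at BP10 and 32 of 41 at BP40. Ratios of all genes were also mostly below 0, 23438 of 35518 at BP10 and 20747 of 35567 at BP40. The 41 include 4 chains that were above background on no array. No chain was called higher than control at either dose with the probe chosen for it, whereas a second probe of Col20a1 was 2-fold higher at BP40, as given below. At BP10, 8 chains were called lower than control (Col4a6, Col6a4, Col9a1, Col11a1, Col15a1, Col20a1, Col22a1 and Col23a1). At BP40 it was again 8 chains (Col3a1, Col4a6, Col6a4, Col9a1, Col11a1, Col14a1, Col22a1 and Col25a1). Both comparisons use the same control array, and 5 chains stood in both lists: Col4a6, Col6a4, Col9a1, Col11a1 and Col22a1. Between the doses, Col20a1 was called higher and Col12a1 and Col25a1 lower at BP40. With the running median of genes of like brightness subtracted, Col4a6 and Col11a1 kept their calls at both doses and Col3a1, Col14a1 and Col25a1 theirs at BP40, and the other calls against the control were lost (Col6a4, Col9a1 and Col22a1 at both doses, Col15a1, Col20a1 and Col23a1 at BP10).

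**Figure D1:**
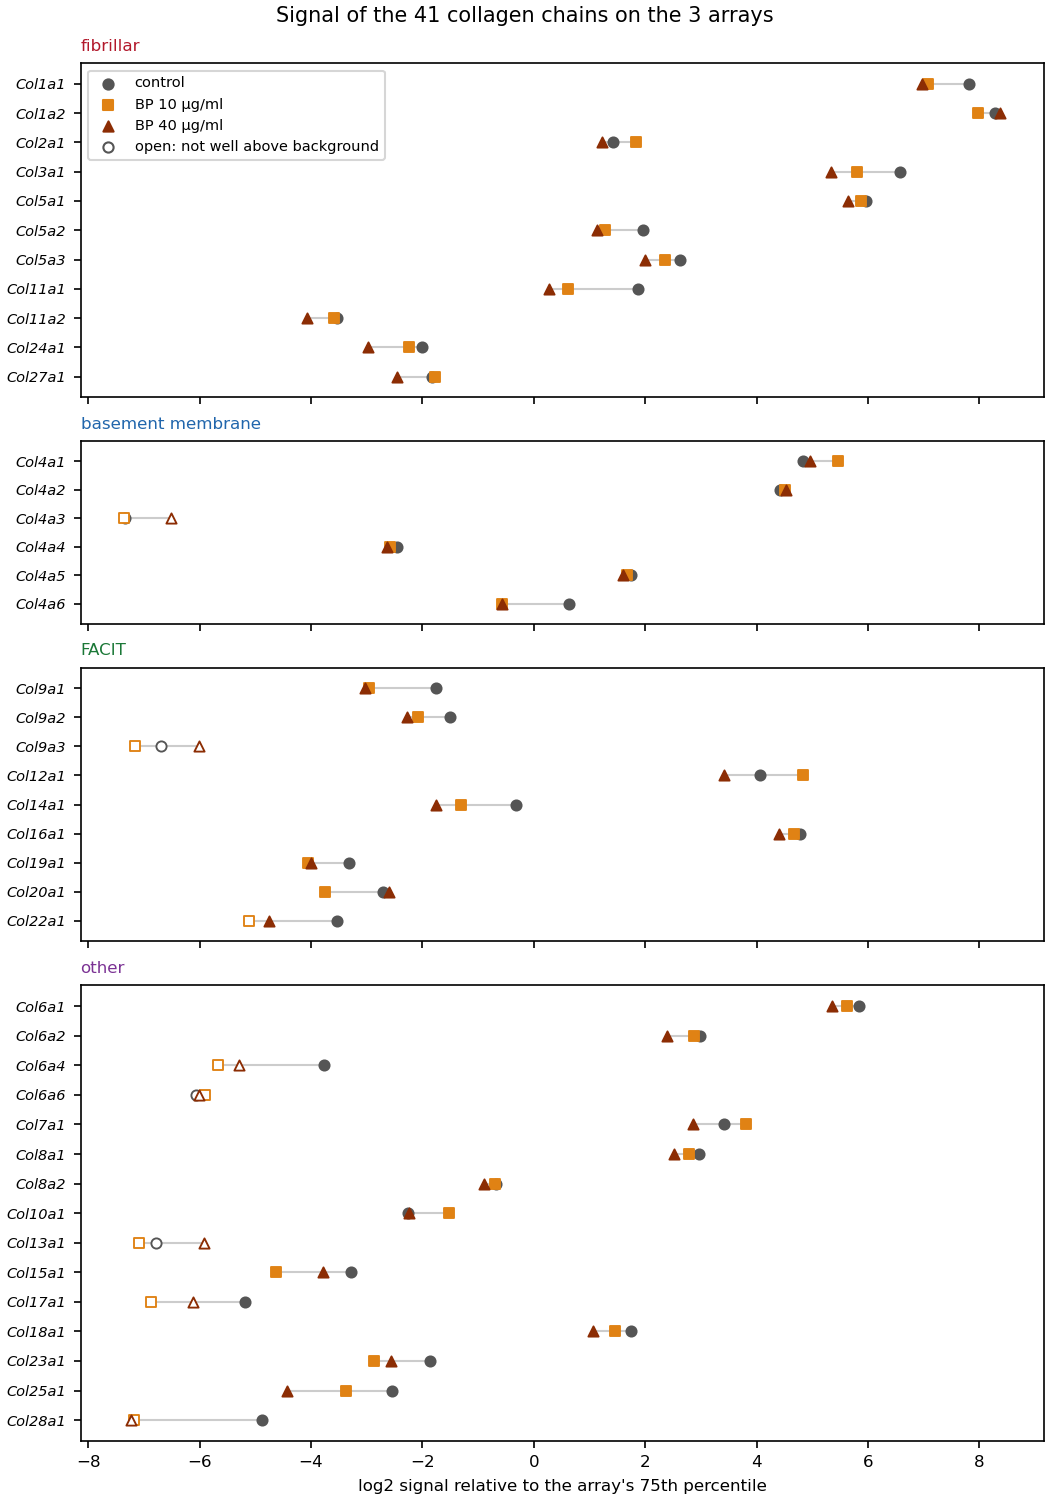
Log2 signal of the 41 collagen chains relative to the 75th percentile of each array, by class, on the control (circles), BP10 (squares) and BP40 (triangles) arrays, with 1 array per condition; open symbols are not well above background. Col11a1 runs from 1.88 on the control to 0.28 on BP40, whereas Col4a2 lies between 4.42 and 4.54 on all arrays; levels of different chains cannot be compared.

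These counts stand against a background in which many dim genes were lower with BP. Over all genes, 10.5% were called lower and 2.76% higher at BP10, and 10.5% lower and 2.7% higher at BP40. Among genes of a mean log2 signal over 0, the shares called lower were 1.64% at BP10 and 0.928% at BP40, and those called higher 0.57% and 0.827%. Of the 18 collagen chains this bright, 1 was called lower at BP10 (Col11a1) and 2 at BP40 (Col3a1 and Col11a1), so most of the called chains came from the dim range. Between the doses, 2.07% of all genes were called lower and 1.89% higher at BP40, and of bright genes 0.496% and 1.19%, beside 1 bright chain called lower (Col12a1).

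The median over the chains puts less weight on the threshold. The count called lower was 8 at each dose, whereas the medians differed between the doses. At BP10 the median log2 ratio of the 41 chains was -0.29, near that of all genes, -0.24. At BP40 it was -0.59, beside -0.12 for all genes. The 18 bright chains had medians of -0.15 (BP10) and -0.52 (BP40), beside -0.11 and 0.05 for all bright genes, and 15 of these 18 lay below control at BP40. Between BP40 and BP10, which were scanned together, the bright chains had a median of -0.31 with 16 of 18 below 0, and all bright genes a median of 0.16. The medians over the 41 chains stayed below 0 under each other normalization tried. With the running median subtracted they were -0.09 at BP10 and -0.45 at BP40.

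**Figure D2:**
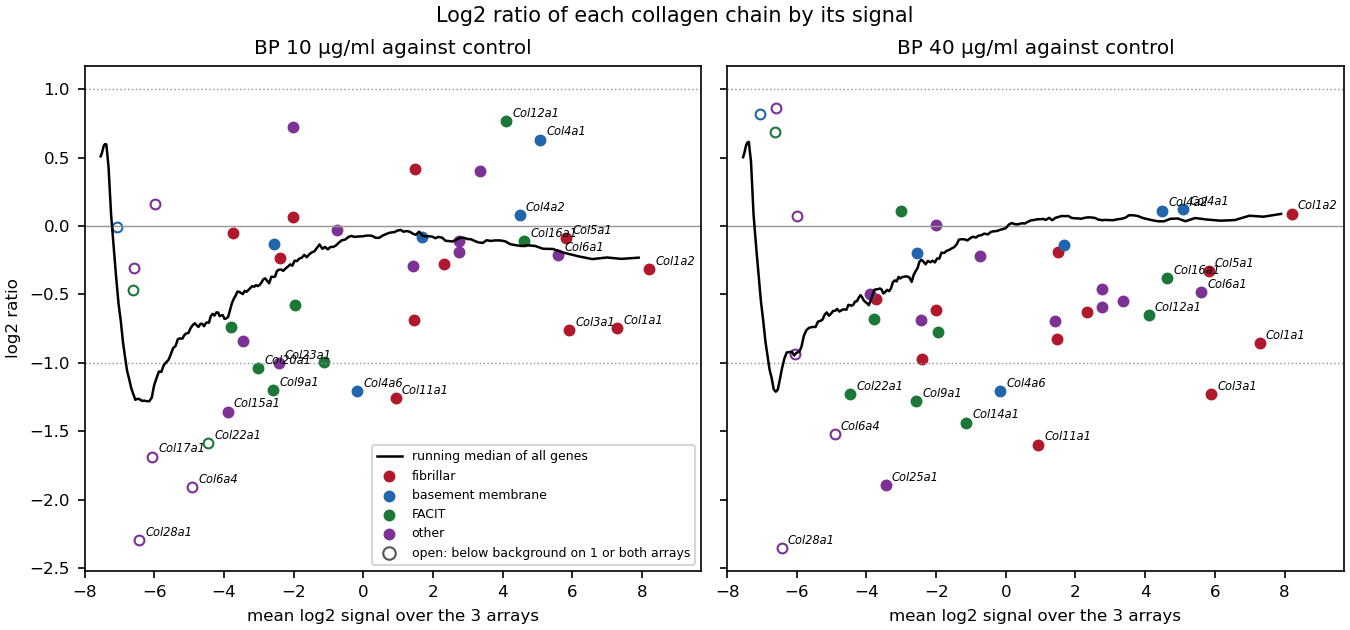
Log2 ratio of each collagen chain against its mean log2 signal over the 3 arrays, for BP10 and BP40 against control, coloured by class; the black line is the running median over all genes, and open symbols are chains below background on 1 or both arrays. In the dim range the line itself lies below 0, except at the dimmest end, at a mean of -7.24 and lower, where it lies above 0. At BP40 15 of the 18 chains right of 0 on the horizontal axis have a ratio below 0.

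Of the 33 chains well above background on all arrays, 21 stood in the order control, BP10, BP40 from high to low. Over all genes above background on the 3 arrays, 4743 of 25156 (18.9%) had this order. It held for 8 of 11 fibrillar chains, 3 of 5 basement membrane chains, 4 of 7 FACITs and 6 of 10 others. Col4a3, Col6a6, Col9a3 and Col13a1 were well above background on no array, and their ratios enter the medians but carry no call.

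Fibrillar chains had a median of -0.27 for BP10 and -0.63 for BP40 on the log2 scale, and all 11 were above background on each array. At BP10, 9 of the 11 ratios were below 0, and at BP40, 10 of 11. The exception at BP40 was Col1a2.

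Collagen I, the most abundant collagen of the body, is made of the chains of Col1a1 and Col1a2. The Col1a1 signal was 7.82 on the control, 7.07 on BP10 and 6.96 on BP40. Both BP arrays were lower than the control, with ratios of -0.74 and -0.85, or 1.68-fold and 1.81-fold lower, short of the threshold. Col1a2 read 8.28, 7.96 and 8.37 on the same arrays. Its ratios were -0.31 at BP10 and 0.09 at BP40, so the partner chains of collagen I did not run together at BP40, where the ratio of Col1a1 was lower than that of Col1a2 by 0.95. This gap is larger than the median SD between 2 probes of a gene, 0.224. Measured probes of the same collagen chain also differed by more than this gap, by 1 or more for 3 of 9 chains at BP40. Col1a2 itself lay below the control at BP40 with quantile normalization and with scaling on spike-in probes.

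Col3a1 encodes the only chain of collagen III, which lies with collagen I in skin and vessel walls. Its signal was 6.57 on the control, 5.81 on BP10 and 5.34 on BP40. Each step was downward, with -0.76 at BP10 and -1.23 at BP40, the latter 2.35-fold lower and called. Col3a1 was the only chain of collagens I to III that reached the threshold.

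Collagen V sets the diameter of fibrils, and its chain Col5a1 read 5.96, 5.87 and 5.64 on control, BP10 and BP40. Its partner Col5a2 read 1.96, 1.27 and 1.14. Col5a3 read 2.62, 2.35 and 2.00. All 3 chains were in the same order, and at BP40 the ratios were -0.33, -0.82 and -0.63, none of them called.

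Col11a1, a chain of collagen XI that nucleates cartilage fibrils and is also found with collagen V elsewhere, read 1.88 on the control, 0.62 on BP10 and 0.28 on BP40. It was called lower at both doses, 2.39-fold at BP10 (log2 ratio -1.26) and 3.03-fold at BP40 (log2 ratio -1.60). Among the 18 bright chains it alone was called at both doses, and the call was kept under each normalization and background correction tried. Col11a2, its partner in collagen XI, was dim, at -3.54, -3.59 and -4.07, with ratios of -0.05 and -0.53.

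The remaining fibrillar chains were those of cartilage collagen II and of the vertebrate minor fibrillar collagens XXIV and XXVII. Col2a1 read 1.42, 1.83 and 1.23, above the control at BP10 and below it at BP40. Col24a1 read -2.0, -2.23 and -2.98, and its ratio at BP40, -0.98, lay just inside the threshold. Col27a1 read -1.83, -1.77 and -2.45. The chains of cartilage collagens thus gave no common direction at BP10. Cartilage markers were weak as well: 7 of 10 were above background on the control and 6 on each BP array, Sox9 read 1.0, 0.52 and 1.14, the other members were dimmer, and Matn1, Epyc and Cnmd were above background on none. Among them Chad was called lower at BP10 (-1.16) and Comp, a cartilage matrix protein also made in tendon, higher at BP40 (1.11) and between the doses (1.45). The part of cartilage cells in these values was not tested.

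Of the classes, basement membrane chains had the median ratio closest to the control, -0.04 at BP10 and -0.01 at BP40, whose signs turned under other normalizations. These medians include Col4a3, above background on no array. Over the chains above background on all arrays they were -0.08 and -0.14. Single chains were not all near the control, with ratios from -1.20 (Col4a6) to 0.63 (Col4a1) at BP10. Col4a1 and Col4a2 are the chains of the ubiquitous collagen IV. They lie head to head on chromosome 8, with annotated starts 21 bases apart on GRCm38.p6 and opposite strands. Col4a2 read 4.42 on the control, 4.51 on BP10 and 4.54 on BP40, ratios of 0.08 and 0.11, within the spread between probes; with scaling on spike-in probes Col4a1 and Col4a2 lay below the control at BP40.

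Col4a1 is the only chain whose probe was printed 10 times per array, so its measurement error within an array is known. Its mean log2 signal was 4.83 ± 0.13 (SD between 10 spots) on the control, 5.46 ± 0.05 (9 spots, after 1 outlier) on BP10 and 4.96 ± 0.06 (10 spots) on BP40. The spots of the control ran from 4.602 to 4.988, those of BP10 from 5.40 to 5.54 and those of BP40 from 4.87 to 5.05. BP10 thus did not overlap with either other array. Over all probes printed 10 times and above background, the median SD between spots was 0.14 on the control, 0.07 on BP10 and 0.08 on BP40. How many of those probes also failed to overlap was not counted, so the separation is not shown to be particular to Col4a1. The ratio of 0.63 at BP10, 1.55-fold, was not called, and that at BP40 was 0.13. Spots of an array share 1 RNA sample, and their spread is not that between cultures.

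**Figure D3:**
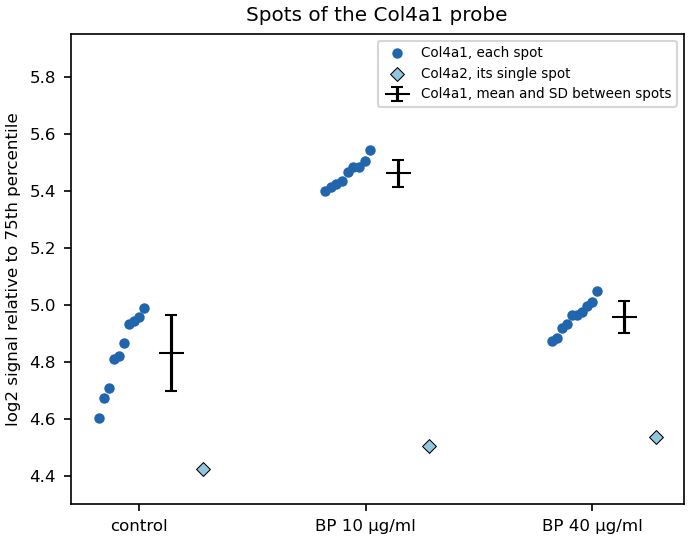
Log2 signal of each spot of the Col4a1 probe on the 3 arrays (blue points, sorted by signal within the array), with the mean and SD between spots (black), and the single spot of Col4a2 (diamonds). The BP10 spots, from 5.40 to 5.54, lie above all spots of the control and of BP40, whereas Col4a2 stays between 4.42 and 4.54.

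Col4a5 and Col4a6 are the chains of another collagen IV network, in the kidney and under smooth muscle, and also lie head to head, on chromosome X with annotated starts 1343 bases apart. Col4a5 read 1.75, 1.67 and 1.61, with ratios of -0.08 and -0.14. Col4a6 read 0.63 on the control and -0.57 on both BP arrays, 2.30-fold lower and called at both doses. A second Col4a6 probe, at -1.99, -1.80 and -2.10, gave ratios of 0.19 and -0.11, so the call rests on 1 of 2 probes. Col4a4 was dim and flat, at -2.45, -2.58 and -2.64.

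FACITs had class medians of -0.74 at BP10 and -0.68 at BP40, with 7 of 9 chains above background on all arrays. Their range was wide, from a bound of -1.57 (Col22a1) to 0.76 (Col12a1) at BP10. The medians moved with the processing, to between -0.33 and -0.41 at BP10 with the ratios freed of their dependence on brightness, normexp or quantile normalization. At BP40 the FACIT median lay below the fibrillar one as processed here (-0.63), but above it with quantile normalization (-0.58 against -0.65), normexp (-0.40 against -0.72), the running median subtracted (-0.54 against -0.69) and every probe as a member (-0.43 against -0.63).

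Col12a1, a FACIT of tendon and of loaded connective tissue, was the bright chain that moved most between the doses. It read 4.07 on the control, 4.83 on BP10 and 3.41 on BP40. BP10 lay above the control by 0.76 and BP40 below it by a ratio of -0.65, neither of them called. Between the doses the ratio was -1.42, or 2.67-fold lower at BP40, and called under each normalization. A second, dim Col12a1 probe, listed under a transcript identifier, went the other way between the doses, at least 0.47 higher at BP40. Col16a1, a FACIT of skin and other tissues, read 4.79, 4.68 and 4.40 with its brightest probe, ratios of -0.11 and -0.38. Its next brightest probe gave 0.19 and 0.02.

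Col14a1, a FACIT of mature tendon and skin, read -0.32, -1.31 and -1.76. Its ratio was -0.99 at BP10, just inside the threshold, and -1.44 at BP40, called and 2.71-fold lower. A second probe at -1.87, -1.33 and -1.92 gave 0.54 and -0.05. As for Col4a6, the probes of Col14a1 differed by more than 1 on the log2 scale at both doses.

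Collagen IX coats cartilage fibrils. Its chain Col9a1 read -1.75 on the control, -2.96 on BP10 and -3.03 on BP40, called lower at both doses with -1.20 and -1.28, while Col9a2 read -1.51, -2.08 and -2.28, not called. Genes as dim as Col9a1 had a running median of -0.37 at BP10 and -0.34 at BP40, and with it subtracted neither dose passed the threshold. Col19a1, a minor FACIT, read -3.32, -4.06 and -3.99.

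Col20a1 and Col22a1 are FACITs of restricted expression, Col22a1 at tissue junctions. Col20a1 read -2.71, -3.75 and -2.60. It was lower at BP10 than on both other arrays, with -1.04 against the control and 1.15 for BP40 against BP10. A second Col20a1 probe, above background on all arrays, read -4.68, -4.92 and -3.64. Against the control its ratio was -0.24 at BP10 and 1.04 at BP40, at least 2-fold higher there, and between the doses it was 1.28. Both probes thus rose from BP10 to BP40, and they differ on which BP array stood apart from the control. Col22a1 read -3.53 on the control, was not well above background on BP10 (at least 1.57 lower on the log2 scale) and read -4.75 on BP40, a ratio of -1.23. With the running median subtracted its values were -0.89 and -0.65, and with normexp -0.64 and -0.40, so neither call of Col22a1 held there.

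The 15 other chains had a median of -0.29 at BP10 and -0.55 at BP40. Collagen VI forms beaded filaments around cells, and its bright chain Col6a1 read 5.83, 5.62 and 5.35. Its partner Col6a2 read 2.98, 2.87 and 2.39. With these probes the ratios of Col6a1 and Col6a2 were -0.21 and -0.11 at BP10 and -0.48 and -0.59 at BP40, closer to each other than the spread between probes. A second Col6a2 probe, listed under a transcript identifier, gave -0.86 and -0.88, farther from Col6a1 than that spread. Col6a4 was well above background on the control alone, at -3.77, with bounds of -1.33 at BP10 and -1.52 at BP40.

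Collagen VII, of Col7a1 alone, forms the anchoring fibrils under the epidermis. It read 3.41 on the control, 3.81 on BP10 and 2.86 on BP40. As for Col12a1, BP10 lay above the control (0.40) and BP40 below it (-0.55), and the ratio between the doses, -0.95, was just short of a call.

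No chain of the network collagens VIII and X was called with the probes used. Col8a1, of vessel walls, read 2.97, 2.78 and 2.51, and Col8a2 read -0.67, -0.70 and -0.89. A second Col8a2 probe read -2.03, -2.73 and -2.85, with ratios of -0.70 and -0.82. Col10a1, the collagen of hypertrophic cartilage, read -2.26, -1.53 and -2.25, a ratio of 0.73 at BP10 and 0.01 at BP40. With the dependence on brightness subtracted, its value at BP10 was 1.01, which met the threshold.

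The multiplexins, basement-membrane proteoglycans, were Col15a1 and Col18a1. Col18a1, the source of endostatin, read 1.75, 1.46 and 1.06. A second Col18a1 probe, nearly as bright, read 1.22, 1.23 and 1.11, with ratios of 0.007 and -0.11. Col15a1 read -3.28, -4.63 and -3.78 with the probe shown above, called lower at BP10 (-1.36) and not at BP40 (-0.50). Its other 2 probes were above background on the control alone or on no array.

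Transmembrane chains were dim. Col25a1, a neuronal and muscle chain, read -2.54 on the control, -3.38 on BP10 and -4.43 on BP40 with the probe shown above. The ratios were -0.84 at BP10 and -1.89 at BP40, 3.71-fold lower, and it was the chain with the lowest measured ratio at BP40. A second measured Col25a1 probe gave -0.44 and -0.62. Col23a1 read -1.87, -2.87 and -2.56, a ratio of -1.002 at BP10 that just met the threshold, and a second measured probe gave 0.15. Col17a1, of hemidesmosomes, and Col28a1 were above background on the control alone, with bounds no larger than 0.53 in size.

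The chains with several probes show how far a call rests on the probe. There were 15 such chains, and 9 had at least 2 probes above background on both arrays of a comparison. Their ratios differed by 1 or more on the log2 scale for 4 of the 9 at BP10 (Col4a6, Col14a1, Col16a1 and Col23a1) and 3 of the 9 at BP40 (Col4a6, Col14a1 and Col25a1). The 4 Col16a1 probes ran from -1.17 to 0.19 at BP10, and the dimmest gave the lowest value. The bright chains Col1a1, Col1a2, Col3a1, Col5a1, Col6a1, Col11a1 and Col12a1 had 1 probe each under these names.

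**Figure D4:**
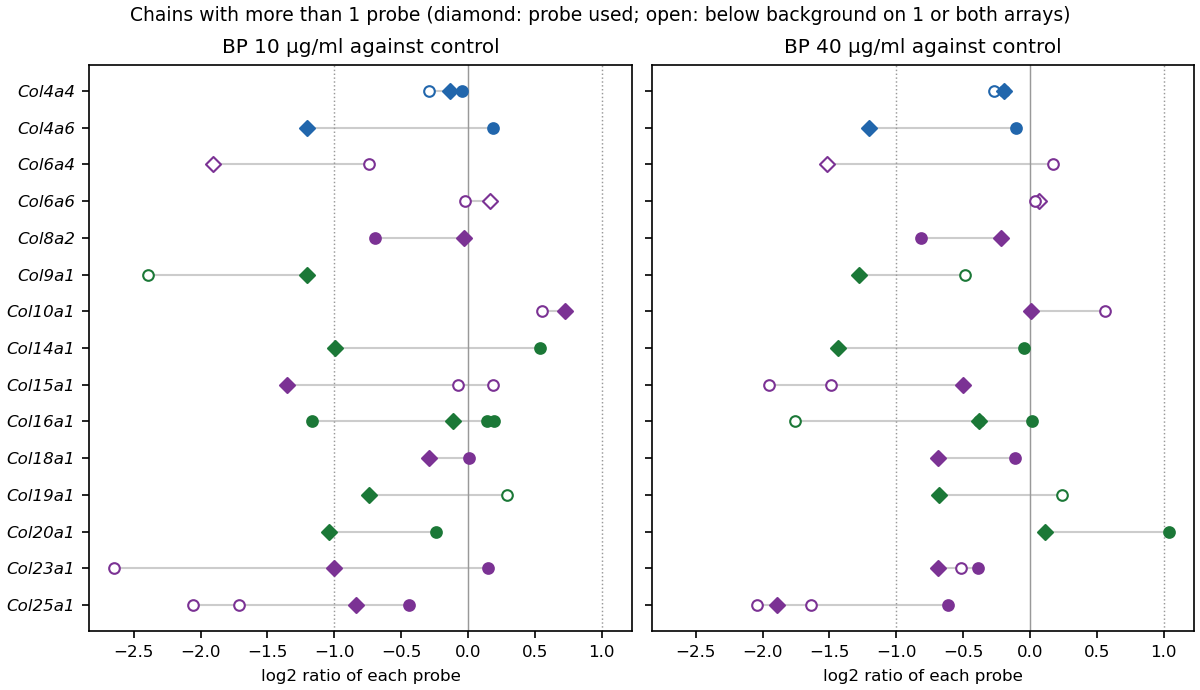
Log2 ratio of each probe of the 15 chains with more than 1 probe, for BP10 and BP40 against control; diamonds are the probes used, open symbols are below background on 1 or both arrays, and dotted lines mark 2-fold. The measured probes of Col4a6 and Col14a1 differ by more than 1, whereas those of Col4a4 lie within 0.09 of each other.

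Partner chains, which must be made together for a heterotrimer, gave the following differences of ratios. With the probes used, Col6a1 and Col6a2 differed by -0.11 at BP10 and 0.11 at BP40, and Col8a1 and Col8a2 by -0.16 and -0.25. The second Col6a2 probe gave ratios of -0.86 and -0.88, beside -0.21 and -0.48 for Col6a1. A second Col8a2 probe gave -0.70 and -0.82, below Col8a1 at -0.19 and -0.46, so the order of that pair turned. Col1a1 lay below Col1a2 by -0.43 and -0.95, and Col11a1 below Col11a2 by -1.21 and -1.07. Col4a1 lay above Col4a2 by 0.55 at BP10 and by 0.01 at BP40, and Col4a5 above Col4a6 by 1.13 and 1.07, where the second Col4a6 probe gave no such gap. Col5a1 lay above Col5a2 by 0.60 and 0.50 and above Col5a3 by 0.18 and 0.30, and Col9a1 below Col9a2 by -0.63 and -0.51. With the probes used, the pairs Col1a1 and Col1a2, Col4a5 and Col4a6, and Col11a1 and Col11a2 were thus apart by more than 0.9 at BP40. The other 6 pairs were apart by 0.51 or less.

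The promoters are described here as sequence only, and whether any motif goes with a ratio was not tested. RefSeq promoter windows on GRCm38.p6 were matched for 33 of the 41 chains (36 windows; Col1a1 was not among them). In the 250 bases before the annotated start, searched on both strands, CCAAT was present in 13 of 36 windows, beside 33.9% of all 32851 windows. TATAAA was present in 5 of 36, beside 12.4% of all, and GGGCGG in 21 of 36, beside 32.7% of all. The last 150 bases before the start are given for Col1a2 (above control at BP40) and Col3a1 (called lower there), picked by these outcomes. Capitals mark CCAAT, from 109 bases before the start in Col1a2, and TATAAA, from 117 bases before it in Col3a1.
Col1a2, chr6:4505468-4505617, plus strand: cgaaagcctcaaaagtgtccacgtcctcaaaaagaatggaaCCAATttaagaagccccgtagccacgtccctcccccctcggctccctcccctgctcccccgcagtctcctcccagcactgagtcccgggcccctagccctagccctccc
Col3a1, chr1:45311388-45311537, plus strand: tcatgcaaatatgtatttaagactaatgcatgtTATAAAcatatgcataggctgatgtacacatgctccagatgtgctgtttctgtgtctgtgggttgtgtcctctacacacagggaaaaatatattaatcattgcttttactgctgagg
A match is a description of the letters and not of a bound factor.

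Genes of collagen modification and folding had medians near the control, -0.11 at BP10 and -0.14 at BP40. None of the 20 was called in any comparison. Most had a mean log2 signal over 0, where few genes were called at all. At that brightness 1.64% of genes were called lower at BP10 and 0.928% at BP40, beside 10.5% of all genes at each dose. The absence of calls is therefore not particular to this list. Farthest from the control were P3h2 (0.74 at BP10, 0.81 at BP40) and P3h1 (-0.60 and -0.64). Serpinh1, the collagen chaperone HSP47, read 6.75 on the control, 6.51 on BP10 and 6.43 on BP40. Fkbp10, a prolyl isomerase, and Hspa5, the general chaperone BiP, had ratios of -0.20 and -0.13 at BP10 and -0.15 and -0.14 at BP40. None of these 20 genes had a ratio as large in size as Col1a1 or Col3a1 at either dose.

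Among 18 genes of export, cleavage and cross-linking, none was called at BP10 and 2 were called lower at BP40, with medians of -0.06 and -0.42. The 2 of 18 stand beside 10.5% of all genes called lower at BP40 and 0.928% of genes of a mean log2 signal over 0, the range of these 2. Both were lysyl oxidases: Loxl3 read 3.27, 3.28 and 2.11, and Loxl4 read 0.84, 1.03 and -0.28. Between the doses, 4 of the 18 were called lower at BP40, beside 2.07% of all genes and 0.496% of bright genes. They were Loxl3, Loxl4, Pcolce2 (an enhancer of propeptide cleavage) and Tll1 (a cleaving protease), all of them bright. Sparc, a collagen-binding protein, read 8.24, 7.87 and 8.30, Pcolce read 7.64, 7.16 and 6.99, and Loxl1 read 5.41, 5.40 and 5.41.

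Of 11 collagen receptors, none was called at BP10 and 1 was called lower at BP40, again beside 10.5% of all genes and 0.928% of bright genes. It was Lair1, an inhibitory receptor of leukocytes, at 0.85, -0.10 and -0.25, with a mean log2 signal of 0.17. Itga11, the integrin chain for fibrillar collagen on fibroblasts, read 5.35, 5.28 and 4.81, Cd44 read 4.65, 4.74 and 4.13, and Itgb1 read 4.09, 4.49 and 4.26. Of 14 genes of degradation, 2 were called higher and 1 lower at BP10 and 2 lower at BP40. All of these were dim, and over all genes 2.76% were called higher and 10.5% lower at BP10, and 10.5% lower at BP40. Mmp15 and Mmp16, membrane-bound proteases, were above background on BP10 and not on the control, Mmp13, a collagenase, was above background on the control alone, with bounds of -1.54 and -1.86, and Mmp9 read -3.59, -2.60 and -4.85. The inhibitors Timp2, Timp1 and the protease Ctsb had ratios of 0.40, -0.49 and -0.27 at BP10 and 0.06, 0.01 and 0.29 at BP40.

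**Figure D5:**
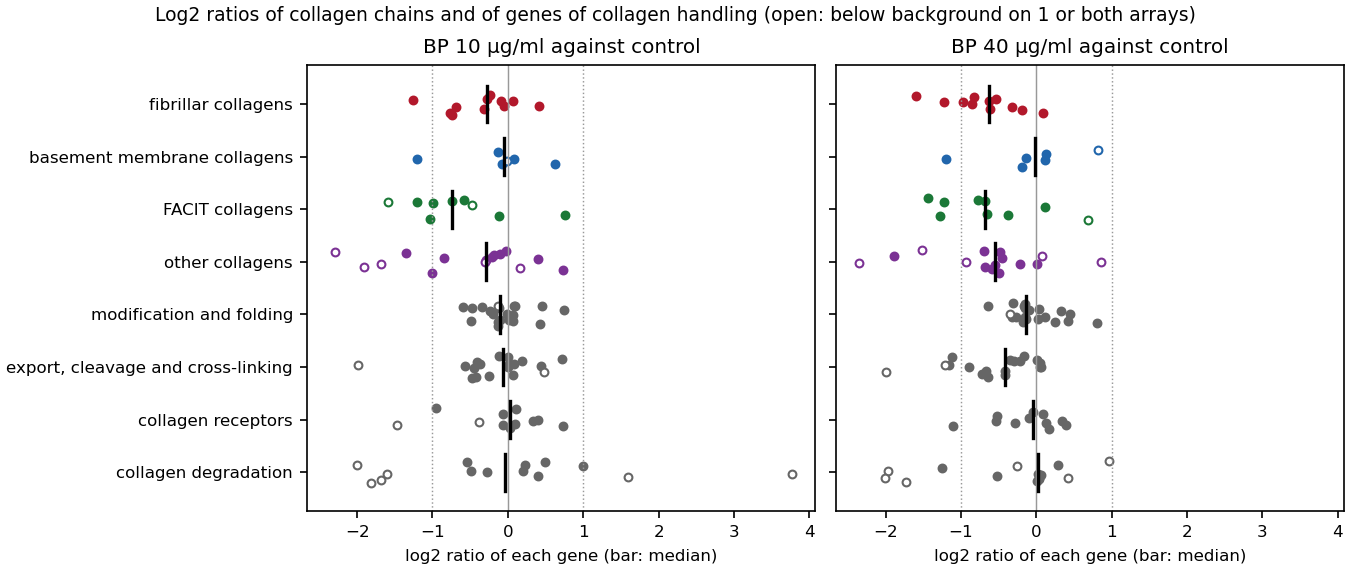
Log2 ratio of each gene at BP10 and BP40 against control for the 4 collagen classes and 4 lists of collagen handling; bars are medians, open symbols are below background on 1 or both arrays, and dotted lines mark 2-fold. At BP40 the medians of the fibrillar, FACIT and other collagens lie between -0.55 and -0.68, and that of modification and folding at -0.14.

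The labelled cell type was checked on 11 fibroblast markers, all above background on each array. Their summed signal was 9.71 on the control, 9.21 on BP10 and 9.33 on BP40 (log2), and 11 of 11 ratios at BP10 and 9 of 11 at BP40 were at or below 0, with a median of -0.60 at each dose. Lum and Dcn were called lower at BP10, and Lum and Postn at BP40, 2 of 11 at each dose beside 10.5% of all genes. Among genes of a mean log2 signal over 0 the share was 1.64% at BP10 and 0.928% at BP40. Dcn and Postn lay in that bright range, and Lum, at a mean of -1.28, did not. Like those of the collagens, these ratios were mostly below 0. In such bulk RNA, fewer fibroblasts and less RNA per fibroblast cannot be told apart. The summed log2 signal of macrophage markers lay between 4.74 and 5.08 over the arrays, of skeletal muscle markers between 3.999 and 4.101, of endothelial markers between 2.75 and 3.11, of epithelial markers between 1.36 and 2.02, of cartilage markers between 1.05 and 1.64 and of bone markers between -0.65 and 0.13. Of 8 endothelial markers 6 were above background on each array, led by Kdr at 2.998, 2.63 and 3.03, and Cdh5 and Tie1 on none. Of 9 epithelial markers 7 were above background on the control and 6 on each BP array, led by Krt18 at 0.82, 1.02 and 0.31, and Cdh1 and Epcam on none. All 9 macrophage markers were above background on each array, and Lyz2 was called higher at both doses (1.09 and 1.25). Most others of that list went the other way, with 7 of 9 ratios not above 0 at BP10 and 6 at BP40. Cldn5 of endothelium (-1.30 and -1.07) and Myh8 of skeletal muscle (-1.16 and -1.16) were called lower at both. Ratios above 0 were 4 of 8 (BP10) and 3 of 8 (BP40) for endothelium, and 2 and 3 of 9 for skeletal muscle. The part of other cells in the collagen values was not tested.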

How the data were processed

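Total RNA of MEF cells was measured on Agilent mouse 8×60K arrays with the dye Cy3, 1 array per condition. The authors deposited scanner files (Feature Extraction 10.5.1.1), in which the processed intensity of a spot has its background and spatial trend removed but is not made comparable between arrays. A value table deposited beside them repeats these intensity values (100.0% of spots equal within a relative tolerance of 0.0001, 0 columns unmapped). The study names GeneSpring GX, with normalization and filters not given in the sources used here.

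Control spots and outlier spots were left out, and log2 of the processed intensity minus the 75th percentile over gene spots was averaged over the spots of a probe. Probes were named by the RefSeq symbol of their accession (26425 probes) or by the name in the BP40 file; 4 collagen probes carry another name in the control file. Each gene took 1 probe, chosen by how many arrays showed it above background and, among equals, by brightness. A dim array was set at the higher of its own signal and its lowest signal well above background. Because probe brightness and array number (1 per condition) limit precision, no test, p-value or SD between cultures is given.

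The alternatives were no filter or a filter on both arrays, 1.5-fold and 3-fold thresholds, quantile normalization, a percentile over the probes that all 3 arrays showed above background, normexp (offset 50), a gene's median over its probes, every probe as a member, the series table and subtraction of a running median over 1001 genes by brightness; scaling on 7 E1A spike-in probes was added after seeing the data. A value was taken as moved past the median SD between 2 probes of a gene, and a count past 1.5 times. Python 3.11.15, numpy 2.4.6, pandas 2.3.3 and matplotlib 3.10.9, and R 4.3.3 with limma 3.58.1 for quantile and normexp, were used. Tested on simulated data, the calling recovered 200 of 200 genes changed 4-fold for BP10 against control among 35451 genes. A 4-fold change lies well above the 2-fold threshold, so this recovery does not show how well changes near 2-fold are called.

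The chains, classes and lists were chosen with earlier results of these data known. Named are the 10 chains brightest on the control, every called chain, every chain of collagens I to VI and chains whose probes differ by 1 or more; of the modification, export, receptor and degradation lists, genes called the same way at both doses and the 3 brightest. Lum, Dcn, Postn, Loxl3, Loxl4, Pcolce2, Tll1, Lair1, Mmp9, Mmp15, Mmp16, P3h1 and P3h2 were named after their values were seen. The same holds for the markers of other cell types and the remaining chains.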

Additional observations from a re-analysis of the deposited data

Results flagged for a closer look

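Col12a1 and Col7a1 lay on opposite sides of the control at the 2 doses, each by more than the median SD between 2 probes of a gene. The log2 ratio of Col12a1 was 0.7646 at BP10 and -0.6527 at BP40, and that of Col7a1 was 0.4005 at BP10 and -0.547 at BP40. No test of this difference was possible with single arrays, so it was not tested. Both directions were the same under quantile normalization, normexp, the spike-in scaling and subtraction of the running median. A second, dim Col12a1 probe gave a bound of -0.26 at BP10, a ratio of 0.21 at BP40 and at least 0.47 for BP40 against BP10, the opposite direction.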

How the results depend on the processing

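No paired analysis was possible because there was a single array of each condition. The number of chains called in BP10 against control (8) became 17 at 1.5-fold, 0 at 3-fold, 4 with the median of all probes and 3 with quantile normalization, normexp or subtraction of the running median. That of BP40 against control (8) became 19 at 1.5-fold, 2 at 3-fold, 5 with normexp, the median of all probes or subtraction of the running median, and 26 with the spike-in scaling. That of BP40 against BP10 (3) became 5 without a filter, 9 at 1.5-fold, 0 at 3-fold, 1 with normexp and 19 with the spike-in scaling.

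The FACIT median at BP10 became -0.41 with quantile normalization, -0.38 with normexp and -0.33 with the running median subtracted, and at BP40 it became -0.40 with normexp and -0.43 with every probe as a member. The spike-in scaling, whose 7 probes had a mean log2 ratio of 0.67 for BP40 against control and 0.77 for BP40 against BP10, moved the median of all genes to -0.80 and -0.71. With it the medians at BP40 against control were -1.26 over all chains, -1.30 for fibrillar, -0.68 for basement membrane, -1.35 for FACIT and -1.22 for other chains, and against BP10 they were -0.96, -1.13, -0.80, -0.85 and -0.96. This scaling subtracts a single value per array and shifts all ratios of a comparison alike, so the order of the classes could not change. The other 120 of 135 medians stayed within the spread between probes, and of 861 single ratios 641 did. These totals include the series table, which repeats the same values, so its 15 medians and 123 single ratios could not move. The percentile over probes above background shifts all ratios of a comparison by the same small amount, and its 15 and 123 stayed too.

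With the median of all probes, Col15a1 (0.19) and Col23a1 (0.15) turned above the control at BP10. Of all called genes, 20.7% (BP10) and 20.5% (BP40) were higher; quantile normalization gave 50.3% and 51.5%, normexp 31.5% and 44.0%, and subtraction of the running median 65.2% and 59.3%. With the spike-in scaling it was 2.42% at BP40, and between the doses 2.08%, beside 47.8%. No cause was tested. The limits are 1 array per condition, 1 probe for 26 of the 41 chains, and signals near background, where a ratio is only a bound.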

Other observations

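The name rule missed collagen probes that the array lists under transcript identifiers or older names. A probe described as Col6a3, the large chain of collagen VI, read 6.14 on the control, 6.01 on BP10 and 5.65 on BP40, ratios of -0.13 and -0.49, near those of Col6a1 (-0.21 and -0.48). A second Col12a1 probe was dim, at -4.84 on the control, with a bound of -0.26 at BP10 and a ratio of 0.21 at BP40. A probe named Gm7455, now Col6a5, was above background on the control alone, at -2.69, with bounds of -2.41 and -2.73. A probe named Emid2, now Col26a1, was likewise above background on the control alone, with bounds of -0.05 and -0.38.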
